A study of Mus musculus with 39 samples.

Results

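Immature B cells of mouse bone marrow were compared with pre-B cells, the stage before them, on 14 of the 39 arrays of the series: the 6 arrays titled as immature B and the 8 titled as pre-B. Both populations were sorted from adult mice. Pre-B cells were taken as B220+ CD43- IgM- IgD- and immature B cells as B220+ CD43- IgM+ IgD-, so that IgM at the surface was the single gate marker to differ. All 14 arrays carried cells labelled as normal. Strain, sex, treatment and the animal behind each array were not given in the sources used here. The p-values therefore measure the spread between these samples, which may be technical. The series also holds 6 pro-B, 3 mature B and 16 leukemic pre-B arrays, and the 9 pro-B and mature B arrays entered the model to help estimate the spread. Pro-B cells were sorted as B220+ CD43+ IgM- IgD- and mature B cells as B220+ CD43- IgM+ IgD+, from adult bone marrow as well.

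Pre-B cells have rearranged a heavy chain gene and carry its product at the surface with the surrogate light chain, which is made of Igll1 and Vpreb proteins. They divide in response to interleukin 7 and to this pre-B receptor, then stop dividing, express the RAG recombinase again and rearrange a light chain gene. A cell whose light chain pairs with its heavy chain shows a complete IgM and becomes an immature B cell, which is tested against self antigen in the marrow before it leaves for the spleen. The comparison thus spans light chain assembly, the end of division and the first display of an antigen receptor.

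Levels below are log2 intensities of 1 probe set per gene, and a difference is the immature B mean minus the pre-B mean on that scale, so that 1 unit is 2-fold. Of 12393 genes, 2426 (19.6%) were called at an adjusted p under 0.05 in limma, with 1348 (10.9%) higher and 1078 (8.70%) lower in immature B cells. At least 2-fold, 471 were higher and 400 lower. For 1198 genes (9.67%) every immature B array lay on the same side of all 8 pre-B arrays. The median difference over all genes was -0.056. A level with a mean below 5.69 is called near background, a limit taken from genes of other organs. Where 1 stage was near background, a fold is given as a lower bound, with each array of that stage at its own level or the limit, whichever was higher, and the difference is the one measured.

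Genes of the gate markers gave a check of the labels. Ighm, which encodes the heavy chain of IgM, lay between 12.66 and 12.97 in pre-B arrays and between 13.23 and 13.60 in immature B arrays, a difference of 0.64 (SE 0.071, adjusted p = 3.02e-07). The sort read IgM at the surface, and the transcript is made in both stages. The 11 probe sets of Ighm disagreed, with differences from -0.37 to 1.47, and its call was lost with all probe sets averaged, without probe sets that match several transcripts and with all 39 arrays in the model (adjusted p up to 0.929). Ptprc, which encodes CD45 and its B220 form, was higher by 0.94 (SE 0.12, adjusted p = 2.4e-06). Spn, which encodes CD43, the marker both gates lack, had means below the background limit in both stages. It differed by -0.96 (adjusted p = 0.000269). Ighd, which encodes the IgD heavy chain, was not analysed here. In such bulk samples fewer cells of a type and less RNA per cell cannot be told apart.

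Some arrays stood apart. Immature B arrays 2 and 3 were nearly identical: the SD of their difference over all genes was 0.212 on the log2 scale, against 0.417 for the next closest pair of the stage and 0.361 for the closest pair of pre-B arrays. Whether they carry 1 RNA sample was not given, and with their mean taken as 1 array 2096 genes were called. Arrays 2, 3 and 6 also held Dntt, Igll1, Vpreb1 and some monocyte and plasma cell transcripts at higher levels than arrays 1, 4 and 5, as given below. The mean of the plasmacytoid dendritic cell markers was 8.05 to 8.21 on arrays 2, 3 and 6 and 6.75 to 6.96 on the others. Il7r, Il2ra and Rag1 were instead highest on array 4. Dntt and Igll1 had higher means in pro-B (11.72 and 11.27) than in pre-B arrays (9.75 and 10.06). Without arrays 2, 3 and 6, 1491 genes were called, 749 higher and 742 lower. The accession numbers form 2 runs that each hold both stages (pre-B 5 to 8 with immature B 4 to 6, and pre-B 1 to 4 with immature B 1 to 3), which may be batches although no label says so. The 3' minus 5' difference of the beta-actin control averaged 1.33 in pre-B and 1.19 in immature B arrays of run 1, against 0.821 and 0.677 in run 2. That of the Gapdh control went the other way, at 1.04 and 1.104 in run 1 and 1.26 and 1.41 in run 2. Within run 1 alone 1314 genes were called and within run 2 alone 1817.

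The genes of the recombinase fell further than almost any other. Rag2, whose product forms the recombinase with that of Rag1, had the largest measured fall of any gene with separated arrays. Its level was 9.01 at the lowest, 9.33 at the median and 10.04 at the highest of the pre-B arrays, and 4.36, 5.77 and 6.07 in the immature B arrays. The stages did not overlap, and the immature B mean lay near background. The difference was -3.94 (SE 0.26, at least 11.8-fold, adjusted p = 1.77e-10), and it was -3.91 within run 1 and -3.98 within run 2. Rag1, the subunit that cuts DNA, went from a pre-B range of 11.06 to 11.94 (median 11.72) to an immature B range of 7.003 to 9.30 (median 8.47), a difference of -3.40 (SE 0.29, adjusted p = 9.63e-09). Rag1 stayed above the background limit on all 6 immature B arrays, lowest on array 1 and highest on array 4.

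Dntt encodes terminal transferase, which adds bases at the joints of rearranged genes. It lay between 8.61 and 10.79 in pre-B arrays (median 9.84) and between 4.81 and 7.50 in immature B arrays (median 6.52), and it differed by -3.42 (SE 0.44, adjusted p = 3.42e-06). Its levels of 7.45, 7.16 and 7.50 on immature B arrays 2, 3 and 6 were above those of 4.81, 5.87 and 5.22 on arrays 1, 4 and 5, and without arrays 2, 3 and 6 the difference was -4.45. Of the repair factors that join the cut ends, Xrcc6, which encodes Ku70, fell by 1.85 on the log2 scale, from a pre-B range of 10.84 to 11.59 to 9.01 to 9.60 (adjusted p = 3.29e-09). Its partner Xrcc5, which encodes Ku80, differed by 0.17 (SE 0.28, adjusted p = 0.724). The DNA-bending protein gene Hmgb2, a helper of the recombinase, fell by 1.03 (adjusted p = 1.54e-05). In all, 5 of 12 measured genes of recombination and end joining fell and 0 rose, and the median difference of the list was -0.12. The same counts, 5 and 0, were found without immature B arrays 2, 3 and 6 and within each run.

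**Figure D1:**
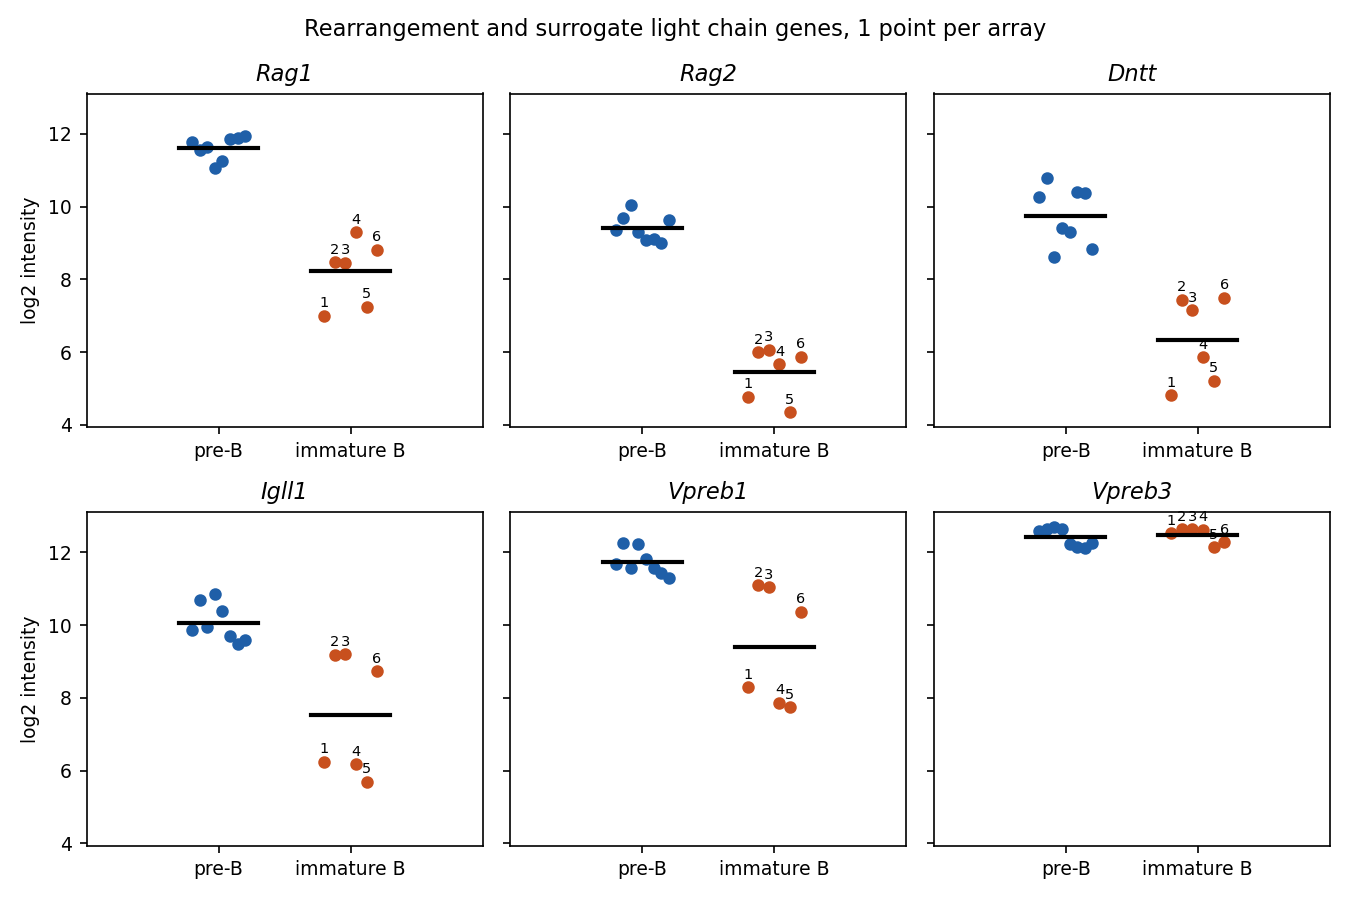
Levels (log2 intensity) of 6 genes of gene rearrangement and of the surrogate light chain on the 8 pre-B and 6 immature B arrays, with 1 point per array, the immature B array number beside its point and a bar at the mean. Rag1, Rag2, Dntt, Igll1 and Vpreb1 are lower on every immature B array than on any pre-B array, and arrays 2, 3 and 6 are the highest immature B arrays for Rag2, Dntt, Igll1 and Vpreb1.

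Of the 3 measured surrogate light chain genes 2 fell as well, but unevenly over the arrays. Igll1, which encodes lambda5, lay between 9.49 and 10.85 in pre-B arrays, and its immature B levels were 6.25, 9.19, 9.20, 6.18, 5.70 and 8.73 on arrays 1 to 6. Arrays 2, 3 and 6 thus lay just below the pre-B range and arrays 1, 4 and 5 far below it. The difference was -2.52 (SE 0.46, adjusted p = 0.000245), and without arrays 2, 3 and 6 it was -4.02. The other probe set of Igll1 differed by 0.65, in the opposite direction. It alone stands for the gene once probe sets that match several transcripts are left out, and it was then called higher (adjusted p = 0.0206). Vpreb1, which encodes the other part of the surrogate chain, gave 8.30, 11.10, 11.04, 7.87, 7.74 and 10.37 on immature B arrays 1 to 6, against 11.30 to 12.27 in pre-B arrays. Its difference was -2.33 (SE 0.43, adjusted p = 0.000276), or -3.76 without those 3 arrays. Vpreb3, which has been tied to folding of immunoglobulin chains, differed by only 0.065 (SE 0.20, adjusted p = 0.852). With 2 of 3 measured genes lower, the median difference of this list was -2.33 with all 6 arrays.

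Cell division genes fell together. All 42 measured genes of mitosis and the spindle fell, beside 8.70% of all genes. For 41 of them the arrays of the stages did not overlap, beside 9.67% of all genes. The median difference of the list was -1.88, against -0.056 over all genes, and single genes ran from -2.30 to -0.54. The mean of the list on an array lay between 10.14 and 10.91 in pre-B and between 7.96 and 8.98 in immature B arrays. The median difference was -1.89 within run 1, -1.88 within run 2 and -2.05 without immature B arrays 2, 3 and 6, where 41 of the 42 were called. Among the genes of DNA replication and nucleotide supply, 38 of 44 fell, 0 rose, and the median difference was -1.27.

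Several of the mitotic genes share letters in their promoters. Many genes of the late cell cycle are known to carry CCAAT boxes and a cell cycle homology region, TTTGAA, through which the DREAM complex holds them down in resting cells. RefSeq promoters (build GRCm38.p6, 250 bases before to 50 after each start) were at hand for 35 of the 42 mitotic genes, as 37 promoters. On either strand, 28 of the 37 (75.7%) held TTTGAA and 28 (75.7%) held CCAAT, and 25 (67.6%) held both. Of all 32851 promoters in the table, 17.9% held TTTGAA, 37.4% CCAAT and 6.95% both. For the replication genes the 46 promoters held the E2F motif, TTTCCCGC or TTTGGCGC, in 23.9% of cases, against 1.56% of all promoters. A match is a description of these letters and not of binding. Over the promoters of all measured genes, TTTGAA was in 12.9% and the E2F motif in 2.47%. The shares were 18.5% and 7.62% for genes called lower, which include those of both lists, and 10.8% and 1.14% for genes called higher. The promoters of 3 mitotic genes among those described below and of Cdc6, the replication gene with the largest fall, are shown 5' to 3', to let the letters be seen in place, on the strand of the gene. Capitals mark CCAAT and TTTGAA on either strand, and in Cdc6 the E2F motif, which there lies on the opposite strand.
Ccnb2 (chr9:70421505-70421804, minus strand): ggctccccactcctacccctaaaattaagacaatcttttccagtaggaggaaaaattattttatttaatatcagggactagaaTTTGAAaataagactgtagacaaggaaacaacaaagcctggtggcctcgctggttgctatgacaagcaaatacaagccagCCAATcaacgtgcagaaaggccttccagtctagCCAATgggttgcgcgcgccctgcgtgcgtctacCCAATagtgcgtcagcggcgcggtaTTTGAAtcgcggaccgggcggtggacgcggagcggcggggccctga
Aurka (chr2:172370521-172370820, minus strand): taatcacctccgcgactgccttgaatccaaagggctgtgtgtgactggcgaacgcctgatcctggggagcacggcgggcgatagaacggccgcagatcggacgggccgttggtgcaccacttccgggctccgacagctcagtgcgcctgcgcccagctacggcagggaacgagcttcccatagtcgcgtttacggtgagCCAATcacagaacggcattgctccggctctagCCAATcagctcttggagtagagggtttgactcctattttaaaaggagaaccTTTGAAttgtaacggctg
Cenpf (chr1:189688037-189688336, minus strand): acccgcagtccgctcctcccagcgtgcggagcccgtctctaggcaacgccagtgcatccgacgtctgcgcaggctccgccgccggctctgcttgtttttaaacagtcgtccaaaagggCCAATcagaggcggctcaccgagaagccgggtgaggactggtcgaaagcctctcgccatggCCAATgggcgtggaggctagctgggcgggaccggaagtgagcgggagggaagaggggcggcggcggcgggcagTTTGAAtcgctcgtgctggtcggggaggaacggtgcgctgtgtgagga
Cdc6 (chr11:98907901-98908200, plus strand): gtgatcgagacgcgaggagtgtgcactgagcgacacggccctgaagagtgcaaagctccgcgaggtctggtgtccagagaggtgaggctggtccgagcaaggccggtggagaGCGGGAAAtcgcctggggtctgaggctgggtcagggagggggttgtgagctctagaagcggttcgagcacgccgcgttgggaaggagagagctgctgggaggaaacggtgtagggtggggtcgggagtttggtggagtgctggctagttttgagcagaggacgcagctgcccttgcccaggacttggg

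Cenpf, a kinetochore protein whose promoter is shown above, fell most of the mitotic list. Its level was 8.90, 9.55 and 10.15 at the lowest, median and highest pre-B array and 5.83, 7.37 and 7.89 in immature B cells. The difference was -2.30 (SE 0.31, 4.91-fold, adjusted p = 6.23e-06). Ccnb2, a cyclin of the mitotic kinase, ranged from 10.33 to 11.39 in pre-B and from 7.53 to 9.13 in immature B arrays, a difference of -2.25 (SE 0.29, adjusted p = 3.33e-06). The lowest immature B value of both genes came from array 4 and neither gene overlapped between stages. The motor gene Cenpe, the checkpoint kinase gene Bub1, the spindle kinase gene Aurka and the depolymerase gene Kif2c fell by 2.24, 2.20, 2.19 and 2.19 on the log2 scale. Of these 4, Aurka has both motifs in the stretch above, while the promoters of Bub1 and Cenpe held CCAAT alone and that of Kif2c TTTGAA alone. Mki67, the proliferation marker, fell by 1.26, with a pre-B range of 12.30 to 12.89 and an immature B range of 10.55 to 11.68 (adjusted p = 4.49e-05).

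Among genes of replication and the G1 machinery, the called genes fell with 1 exception. Cdc6, which loads the replicative helicase, lay between 7.67 and 9.05 in pre-B and between 4.50 and 7.03 in immature B arrays, and fell by 2.33 (adjusted p = 2.76e-05). Mcm10, Gins1 and Cdc45, which build the helicase at the origin, fell by 2.05, 1.97 and 1.87. The polymerase subunit gene Pold1 and the clamp loader gene Rfc1 were not called, with differences of -0.11 and -0.17. Of 25 cyclins, inhibitors and E2F genes of the G1 phase, 12 fell and 1 rose. The E cyclins Ccne1 and Ccne2 fell by 1.34 and 1.83, the repressor E2f8 by 1.89, and the inhibitors Cdkn2c and Cdkn1a by 1.51 and 1.44. The call of Ccne1 was lost within run 1 (adjusted p = 0.0527).

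The exception was Ccnd2, a D cyclin, one of the proteins that link growth signals to the cycle. Its level was 8.80, 9.002 and 9.62 at the lowest, median and highest pre-B array and 11.17, 11.45 and 11.999 in immature B arrays, with no overlap. It rose by 2.48 (SE 0.24, 5.59-fold, adjusted p = 5.49e-08), and all 7 probe sets of the gene differed in that direction. Ccnd3, the D cyclin that pre-B cells are known to need, fell by 1.12 (SE 0.29, adjusted p = 0.00654), and its ranges of 10.27 to 11.72 and 8.88 to 10.60 overlapped. Without immature B arrays 2, 3 and 6 the differences were 2.61 for Ccnd2 and -1.58 for Ccnd3. Ccnd2 was at a mean of 10.98 in pro-B and 10.19 in mature B arrays, so that pre-B cells had the lowest mean of the 4 stages. Myc, which drives growth, was higher in immature B cells by 1.08 (SE 0.33, adjusted p = 0.0203), with overlapping ranges. This call was lost without immature B array 1 (adjusted p = 0.0607), within either run, with a replicate block and without immature B arrays 2, 3 and 6 (adjusted p = 0.178). Ribosome biogenesis genes, many of which Myc is known to drive, gave 3 of 24 higher and 0 lower. That share is near the 10.9% of all genes called higher.

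**Figure D2:**
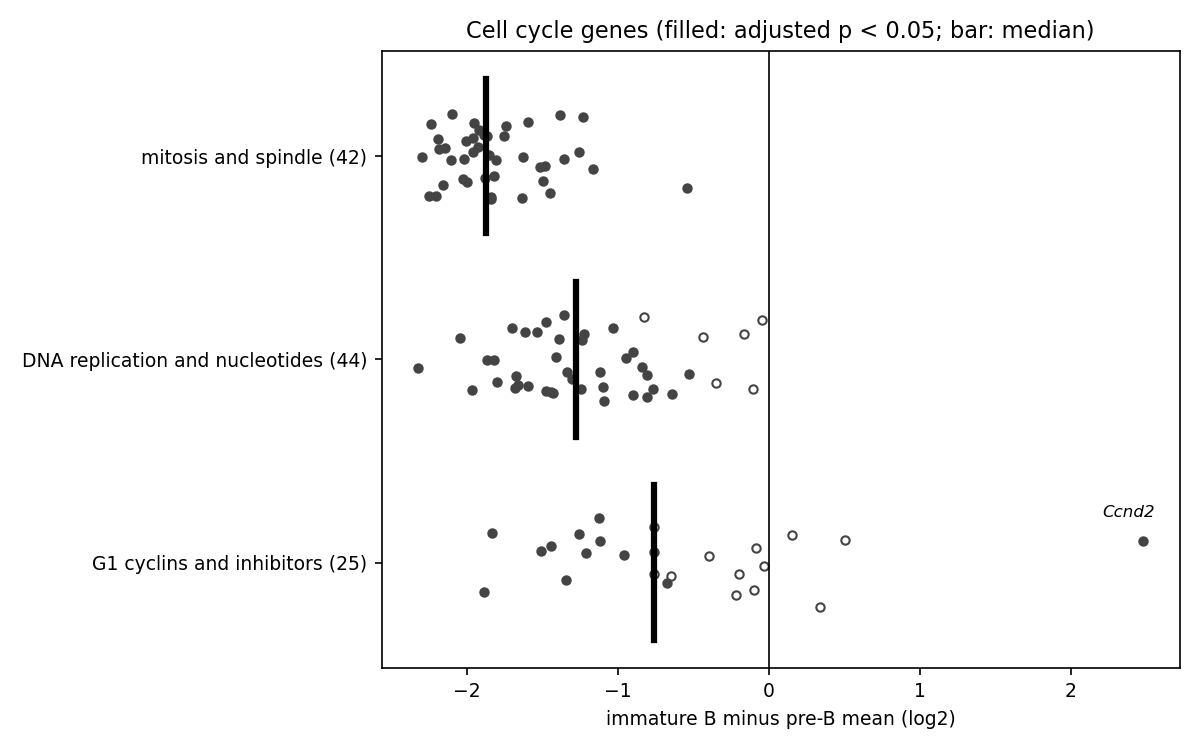
Difference (immature B minus pre-B mean, log2) of each measured gene of 3 cell cycle lists, with 1 point per gene, filled where called, and a bar at the median of the list. All 42 mitotic genes lie below 0, and Ccnd2 is the only called gene above 0 in the 3 lists.

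Genes of the interleukin 7 pathway moved in both directions. Il7r, the receptor chain for this growth factor, lay between 11.75 and 12.10 in pre-B and between 10.14 and 11.19 in immature B arrays, and fell by 1.18 (SE 0.20, adjusted p = 0.000116). Socs2, a feedback target of STAT5, fell by 1.28 and Il2ra, which encodes CD25 and marks late pre-B cells, by 1.12. The levels of Il2ra were 9.25 to 10.16 against 8.02 to 9.29, with immature B array 4 inside the pre-B range. Stat5a itself, the transcription factor of the pathway, was higher by 0.43 (adjusted p = 0.00392). In all, 5 of 13 measured genes of the pathway fell and 2 rose, with 3 lower and 0 higher without immature B arrays 2, 3 and 6, and the lower count went down to 3 when any 1 of immature B arrays 1 to 3 or pre-B arrays 5 and 6 was left out, and the higher count to 1 for 8 of the 14 arrays. The calls of Socs2, Il2ra and Stat5a were also lost in at least 1 other fit, with adjusted p up to 0.19, 0.148 and 0.0694. As background for this step, Il7r was at a mean of 8.28 in mature B arrays, below the lowest immature B array.

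Light chain transcripts rose. Igk, a probe set of the kappa light chain, was near the top of the scale in both stages, at 12.78 to 13.13 in pre-B and 13.54 to 13.72 in immature B arrays, a difference of 0.66 (SE 0.063, adjusted p = 5.2e-08). Iglv1, a lambda variable segment, rose by 1.39 (SE 0.32, adjusted p = 0.00223). This was the brightest of the 4 probe sets of Igk, which all differed in the same direction, by 0.66 to 2.99. Single kappa variable segments rose by more than the brightest Igk probe set. Igkv9-120 went from 6.78 to 7.81 in pre-B arrays to 10.33 to 11.65 in immature B arrays, a difference of 3.60 (SE 0.30, 12.2-fold, adjusted p = 8.27e-09). Igkv6-14 rose by 3.52 (SE 0.35, 11.5-fold, adjusted p = 6.93e-08), from a pre-B median of 7.70 to an immature B median of 11.37. Pro-B arrays lay above pre-B arrays for both segments, at means of 9.74 and 9.59. Igkv9-120 was 11.61, 11.65 and 11.375 on immature B arrays 2, 3 and 6, against 10.55, 10.33 and 10.396 on arrays 1, 4 and 5. Without arrays 2, 3 and 6 the differences were 3.04 and 3.23. The part of plasma cells in these levels was not tested. Of the 14 kappa variable genes that the arrays measured, a family set apart after its values were seen, 11 rose and 0 fell. Of all genes 10.9% rose and 8.70% fell. All 11 had separated arrays, beside 9.67% of all genes. Their median difference was 2.53. Variable segments resemble each other, so a probe set may read several of them. The calls of Igk and Iglv1 were lost with all 39 arrays in the model, at adjusted p up to 0.101 and 0.109, that of Iglv1 also within run 1 and without immature B arrays 2, 3 and 6, and that of Igkv9-120 without probe sets that match several transcripts, where another of its probe sets differed by -0.034.

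Part of the signal chain of the antigen receptor rose. Lat2, an adaptor known as NTAL, rose by 2.76 (SE 0.26, 6.77-fold, adjusted p = 4.79e-08): pre-B levels were 5.80 to 7.20 and immature B levels 8.80 to 9.86. Rasgrp1, which activates Ras, rose by 1.79 (SE 0.16, adjusted p = 2.64e-08), from a median of 7.83 to 9.60. Plcg2 and Vav1, an enzyme and an exchange factor of the pathway, rose by 0.88 and 0.88 (adjusted p = 0.000182 and 0.000792), and their ranges overlapped. Cd79a, a signal subunit of the receptor, differed by 0.69 (SE 0.27, adjusted p = 0.0733) and was called in 5 other fits, the one of the 14 arrays alone among them. Prkcb, a kinase of the pathway, differed by 0.035 (adjusted p = 0.742). In all, 7 of 23 measured genes rose and 1 fell, beside 10.9% and 8.70% of all genes. The gene that fell, the kinase gene Fyn, was named after its value was seen and lost its call without any 1 of 9 arrays. The higher count was 4 when immature B array 1 or pre-B array 7 was left out, and 4 without immature B arrays 2, 3 and 6.

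Many of the brakes on that signal rose. Of 16 measured inhibitory receptors, phosphatases and adaptors, 9 rose and 0 fell, and the median difference was 0.58. Ptpn6, which encodes the phosphatase SHP-1, was 9.10, 9.38 and 10.003 at the lowest, median and highest pre-B array and 11.17, 11.53 and 12.20 in immature B arrays. It differed by 2.15 (SE 0.20, 4.43-fold, adjusted p = 3.47e-08), with no overlap. Cd22, a receptor that recruits SHP-1, rose by 2.36 (SE 0.28, adjusted p = 7.18e-07), from 8.35 to 9.41 up to 10.66 to 11.61. The paired receptor Pirb rose by 2.36, the adaptor Pag1, which holds the kinase CSK at the membrane, by 1.51, and the IgG receptor Fcgr2b by 1.07 (adjusted p = 1.2e-05, 5.6e-09 and 2.83e-05). Inpp5d, which encodes the lipid phosphatase SHIP, differed by 0.096 (adjusted p = 0.492) and the adaptor gene Dok3 by 0.078 (adjusted p = 0.801). Without immature B arrays 2, 3 and 6, 6 of the 16 were higher and 0 lower. The call of Fcgr2b was lost with all 39 arrays in the model (adjusted p = 0.0602).

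Surface molecules of the B cell included some of the largest rises. Of 25 measured surface genes and coreceptors, 12 rose and 3 fell, beside 10.9% and 8.70% of all genes. The arrays did not overlap for 15, beside 9.67% of all genes. Ms4a1, which encodes CD20, was 8.63, 9.24 and 9.51 at the lowest, median and highest pre-B array and 12.22, 12.49 and 12.66 in immature B arrays. The difference was 3.39 (SE 0.14, 10.5-fold, adjusted p = 7.79e-14), at 3.31 within run 1 and 3.48 within run 2. Cd83, a molecule that steadies class II and CD86 at the surface, rose by 4.51 (SE 0.30, 22.7-fold, adjusted p = 1.89e-10), from 6.20 to 7.46 up to 10.44 to 11.70. Cd86, the costimulatory ligand, was near background in pre-B arrays at 3.02 to 4.06 and reached 5.38 to 7.49 in immature B arrays, where array 4 was lowest.

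Markers that are best known from later stages were already higher in the samples sorted as IgM+ IgD-. Fcer2a, which encodes CD23, rose by 3.30 (SE 0.32, adjusted p = 5.33e-08) and Cr2, the complement receptor CD21, by 2.54 (SE 0.31, adjusted p = 1.12e-06). Both were near background in pre-B arrays. On immature B arrays 1 to 6 the Fcer2a level was 8.70, 7.65, 7.78, 6.14, 8.24 and 7.03, and in the 3 mature B arrays it was 10.14 to 11.30. Every immature B array thus lay between the pre-B range, which ended at 5.11, and the mature B range. Fcrl1, an Fc receptor homologue, rose by 2.86 (SE 0.19, adjusted p = 1.77e-10), from 7.16 to 8.21 up to 10.17 to 11.05. Of the 10 measured genes listed as mature B markers, 6 rose and 0 fell, with the same counts without immature B arrays 2, 3 and 6. The mean of this list was 9.96, 9.43, 9.48, 8.76, 9.74 and 9.20 on immature B arrays 1 to 6. The part of any mature B cells in these levels was not tested. The 3 surface genes that fell were named after their values were seen. Enpep, which encodes the pre-B antigen BP-1, fell by 1.59 (adjusted p = 4.8e-05), from 8.58 to 9.20 in pre-B arrays to 6.10 to 8.02 in immature B arrays. Bst1, which encodes BP-3, and Lgals1, a galectin that binds the pre-B receptor, fell by 0.86 and 0.53 (adjusted p = 0.000578 and 0.037). All 3 lost their calls with all 39 arrays in the model (adjusted p up to 0.462), and Lgals1 also without any 1 of 7 arrays. The heat-stable antigen gene Cd24a and Cd93, both used to mark early B cells, differed by 0.029 and -0.087 and were not called (adjusted p = 0.84 and 0.817).

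**Figure D3:**
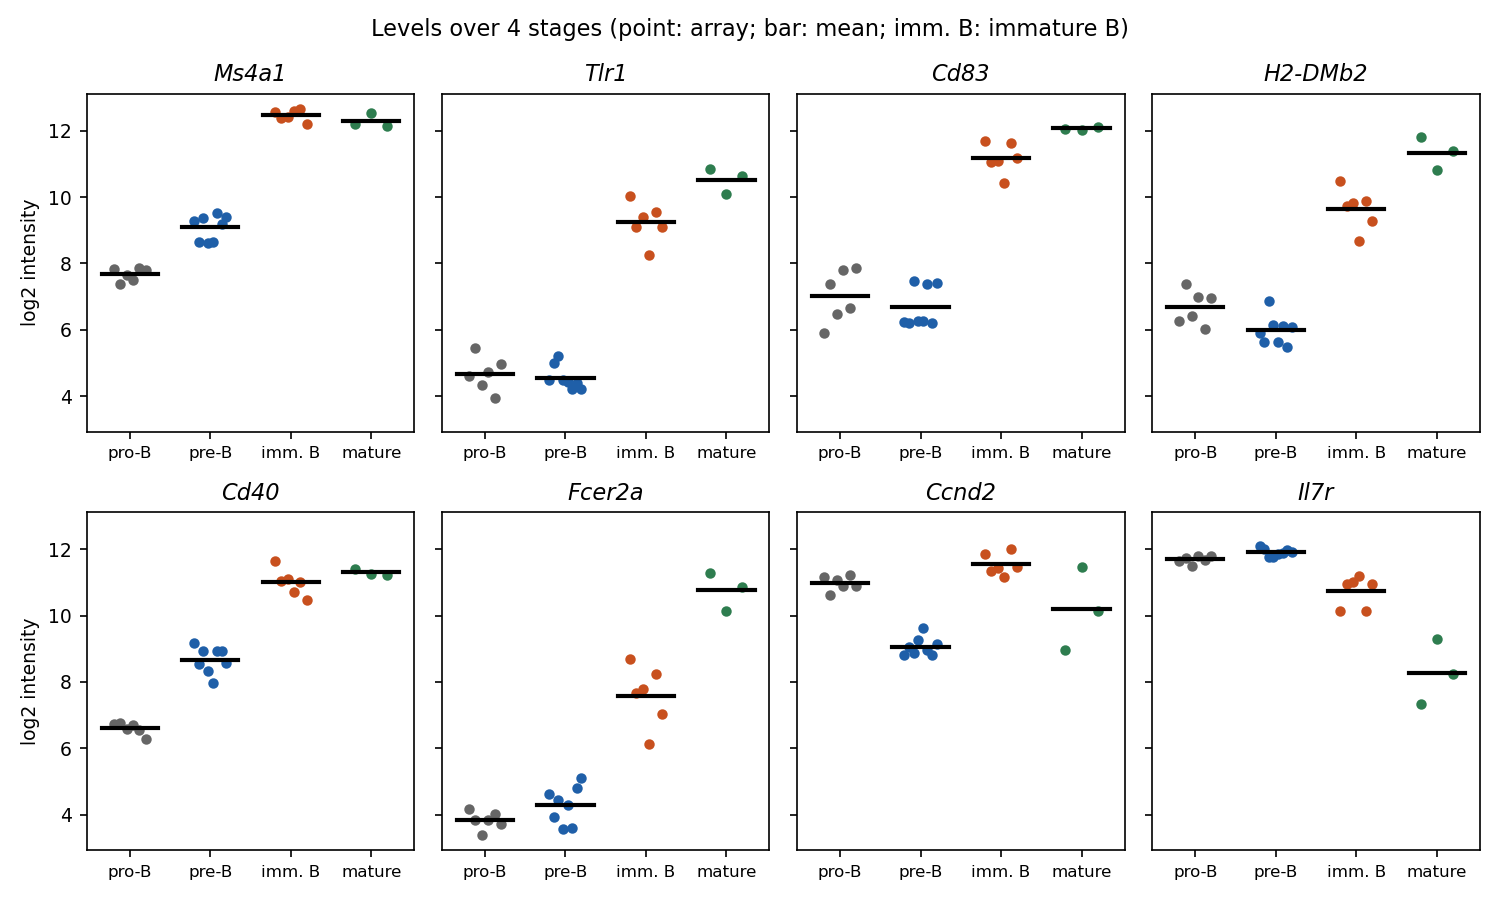
Levels (log2 intensity) of 8 genes on the 6 pro-B, 8 pre-B, 6 immature B and 3 mature B arrays, with 1 point per array and a bar at the stage mean. Ms4a1, Tlr1, Cd83, H2-DMb2, Cd40 and Fcer2a are higher on every immature B array than on any pre-B array, while Ccnd2 is lowest in pre-B cells and Il7r falls from pre-B to mature B cells.

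Antigen presentation by MHC class II rose almost as a whole. Of 13 measured genes, 12 rose and 0 fell, and the median difference was 1.63, at 1.42 within run 1 and 1.60 within run 2. H2-DMb2, a subunit of the H2-M peptide exchanger, was 5.49, 6.001 and 6.86 at the lowest, median and highest pre-B array and 8.69, 9.78 and 10.49 in immature B arrays, a difference of 3.67 (SE 0.26, 12.7-fold, adjusted p = 7.08e-10). H2-Oa, a subunit of H2-O, which restrains that exchanger in B cells, rose by 2.60 (adjusted p = 1.51e-07) and its ranges of 6.26 to 7.56 and 8.91 to 10.26 were apart. Cd74, the invariant chain, rose by 1.63 and Ifi30, a thiol reductase of the same compartment, by 1.72 (adjusted p = 5.46e-06 and 3.3e-08). The protease gene Ctsh rose by 2.31 (adjusted p = 1.42e-05). H2-Eb1, a chain of the class II molecule itself, rose by 1.78 (SE 0.38, adjusted p = 0.00109), but its immature B levels of 11.70, 12.51, 12.54, 9.43, 11.24 and 12.19 on arrays 1 to 6 put array 4 inside the pre-B range. Without immature B arrays 2, 3 and 6, 7 of the 13 were higher and H2-Eb1 was not (adjusted p = 0.145); it also lost its call within run 1. The call of Ctsh was lost with all 39 arrays in the model (adjusted p = 0.0672).

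Some receptors for migration changed. Cxcr5, which guides B cells to follicles, was near background in pre-B arrays at 3.66 to 4.41 and lay between 6.19 and 8.79 in immature B arrays, a difference of 3.43 (SE 0.30, at least 3.64-fold, adjusted p = 1.17e-08). Cnr2, the cannabinoid receptor that helps to hold immature B cells in marrow sinusoids, rose by 3.55 (SE 0.24, 11.7-fold, adjusted p = 2.51e-10), from 4.998 to 6.31 up to 8.36 to 9.68. The pre-B mean of Cnr2, 5.69, lay at the background limit, with pre-B arrays on either side of it, so the fold is uncertain. S1pr1, which draws cells into the blood, rose by 1.91 (SE 0.24, adjusted p = 2.03e-06). Cxcr4, which retains cells in the marrow, fell by 0.40 (SE 0.085, adjusted p = 0.00124), with ranges of 12.46 to 13.03 and 12.24 to 12.47 that overlapped. Klf2, a regulator of this program, differed by 0.58 (SE 0.31, adjusted p = 0.21), and the lymph node homing receptor Ccr7 by 0.46 (SE 0.38, adjusted p = 0.437). In all, 8 of 19 measured genes rose and 1 fell, beside 10.9% and 8.70% of all genes. The higher count was 5 when any 1 of immature B arrays 1, 2 and 3 was left out, and 4 without arrays 2, 3 and 6.

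Receptors for survival signals rose. Tnfrsf13c, the BAFF receptor, went from 10.66 to 11.05 in pre-B arrays to 12.16 to 12.64 in immature B arrays, a difference of 1.502 (SE 0.11, 2.83-fold, adjusted p = 4.18e-10). Cd40, the receptor for T cell help, rose by 2.33 (SE 0.18, 5.02-fold, adjusted p = 1.39e-09), from a median of 8.75 to 11.03, and Tnfrsf13b, which encodes TACI, by 1.07 (adjusted p = 2.78e-09). Ltb, the lymphotoxin beta gene, rose by 2.48 (adjusted p = 4.71e-06) from levels near background. Of 23 measured genes of the BAFF, CD40 and NF-kB pathways, 10 rose and 1 fell, the adaptor gene Traf6, which was named after its value was seen. The counts were 7 and 1 without immature B arrays 2, 3 and 6.

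Among survival proteins, Bcl2l1, which encodes BCL-xL, was 8.77, 9.34 and 9.97 at the lowest, median and highest pre-B array and 7.54, 8.04 and 8.48 in immature B arrays. It fell by 1.21 (SE 0.19, adjusted p = 3.14e-05), and all 4 of its probe sets differed in that direction. Bcl2 was near background in pre-B arrays at 5.12 to 5.81 and lay between 6.04 and 7.77 in immature B arrays, lowest on array 4 and highest on arrays 1 and 5. It rose by 1.56 (SE 0.26, adjusted p = 9.08e-05), a call lost within run 1 alone (difference 1.31). Mcl1 rose by 0.78 (SE 0.086, adjusted p = 3.12e-07), and its 6 probe sets differed in the same direction. Bid, which links death receptors to mitochondria, rose by 0.92 (adjusted p = 0.00152). Bcl2l11, which encodes BIM, fell by 0.44 (adjusted p = 0.0146), a call lost within run 2, with all 39 arrays in the model and without immature B arrays 2, 3 and 6 (adjusted p up to 0.212). The killer proteins Bad and Bak1 differed by 0.057 and 0.084 and were not called (adjusted p = 0.861 and 0.773). Over the 14 measured members, 3 rose and 2 fell, beside 10.9% and 8.70% of all genes. Over the 4 stages, from pro-B to mature B cells, the means of Bcl2 were 7.84, 5.48, 7.03 and 8.49, and those of Bcl2l1 were 7.67, 9.27, 8.06 and 6.84, so that Bcl2l1 had its highest and Bcl2 its lowest mean in pre-B cells.

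Some innate sensors rose. Tlr1, the partner of TLR2 in sensing bacterial lipopeptides, had the largest measured rise of any gene with separated arrays. It was near background at 4.20, 4.45 and 5.20 at the lowest, median and highest pre-B array, against 8.24, 9.25 and 10.05 in immature B arrays. The difference was 4.69 (SE 0.25, at least 11.7-fold, adjusted p = 8.65e-12), at 4.66 within run 1, 4.72 within run 2 and 4.73 without immature B arrays 2, 3 and 6. Cd180 and Ly86, which encode RP105 and its partner MD-1, rose by 2.24 and 1.45 (adjusted p = 1.1e-07 and 1.75e-06). Of 18 measured Toll-like receptors and cofactors, 9 rose and 0 fell. Without immature B arrays 2, 3 and 6 the counts were 5 and 0, and the call of Ly86 was lost with all 39 arrays in the model (adjusted p = 0.235). Monocytes carry several of these receptors too, and the monocyte levels are given below.

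Interferon response genes were higher in immature B cells. Of 21 measured genes 13 rose and 0 fell, with a median difference of 1.08, and 9 and 0 without immature B arrays 2, 3 and 6. Mx1, an antiviral GTPase, went from 6.34 to 7.71 in pre-B arrays to 8.82 to 9.82 in immature B arrays, a difference of 2.22 (SE 0.34, adjusted p = 3.39e-05). Rtp4 rose by 2.05 (SE 0.40, adjusted p = 0.000429), with overlap between stages. The RNA sensor gene Oas1a and Ifit3, an inhibitor of viral translation, rose by 1.61 and 1.63 (adjusted p = 4.85e-05 and 0.00012). On immature B arrays 1 and 5 Ifit3 was 6.47 and 6.33, inside the pre-B range of 5.37 to 6.52, while the other 4 immature B arrays lay between 7.92 and 8.03. The peptide transport and proteasome genes Tap1 and Psmb9 were not called, with differences of 0.42 and -0.11. Tap1 was called in 6 other fits and without pre-B array 2 or 4, and Psmb9 in 1 other fit. The calls of Mx1, Rtp4 and Oas1a were lost with all 39 arrays in the model, at adjusted p of 0.0552, 0.0718 and 0.168.

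Genes that respond at once to receptor signals rose in part. Egr1, a target of antigen receptor signalling, was 8.77, 10.56 and 11.54 at the lowest, median and highest pre-B array and 11.81, 12.11 and 12.40 in immature B arrays, so that the pre-B arrays were spread widely and the immature B arrays were close together above them. The difference was 1.75 (SE 0.33, adjusted p = 0.000318). Ier5 rose by 1.18 (adjusted p = 0.000692), a call lost within run 1. Jund, of the same class, differed by -0.016 (adjusted p = 0.946). Over 26 measured immediate early and stress genes, 6 rose and 0 fell, beside 10.9% and 8.70% of all genes. The counts were 2 and 0 without immature B arrays 2, 3 and 6.

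Among transcription factors of the B lineage, several rose and the founding factor Ebf1 was not called. The level of Ebf1, which specifies the lineage, differed by -0.098 (SE 0.12, adjusted p = 0.599) and the coactivator gene Pou2af1 by -0.034 (adjusted p = 0.875). Klf3 rose by 1.92 (SE 0.26, adjusted p = 4.92e-06), Pou2f2, which encodes OCT2, by 1.71 (SE 0.15, adjusted p = 8.51e-09), Hhex by 1.60 and Bcl11a by 1.53 (adjusted p = 6.96e-07 and 3.29e-09), and none of the 4 overlapped between stages. Pou2f2 was 5.47 to 6.12 in pre-B and 7.30 to 7.70 in immature B arrays. Bcl6, which shields pre-B cells and germinal centre cells from DNA damage, rose by 0.85 (adjusted p = 0.000185), Spib by 0.40 (adjusted p = 0.00136) and Irf8 by 0.91 (adjusted p = 0.000647). Irf4, which promotes light chain rearrangement in pre-B cells, fell by 0.43 (SE 0.12, adjusted p = 0.0123), from 12.71 to 13.11 down to 12.33 to 12.66. Foxo1, which drives the RAG genes, differed by 0.27 (adjusted p = 0.0711), and Bach2 by -0.30 (adjusted p = 0.239). Foxo1 was called without immature B array 6, pre-B array 1 or pre-B array 2 and in 2 other fits, and Bach2 in the fit of the 14 arrays alone. Pax5, the guardian of B cell identity, lay between 5.02 and 6.20 in pre-B arrays and between 5.95 and 7.59 in immature B arrays. Its pre-B mean of 5.62 was just below the background limit of 5.69. Such a mean does not tell an absent transcript from a probe set that reads it weakly. Pax5 rose by 1.15 (adjusted p = 0.00127), a call lost within run 1.

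Over the 33 measured transcription factors, 12 rose and 7 fell. The lower count moved to 3 without immature B array 5 or 6, to 4 without pre-B array 2, 3 or 4, and to 1 without immature B arrays 2, 3 and 6, while the higher count stayed at 12 in the last case. The calls of Bcl6, Spib, Irf8 and Irf4 were lost with all 39 arrays in the model or in another fit, with adjusted p up to 0.151, 0.282, 0.0529 and 0.429.

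Few genes of oxidative phosphorylation were called, and how many depended on the model. Of 36 measured genes of oxidative phosphorylation, 0 rose and 4 fell, beside 10.9% and 8.70% of all genes. The median difference was -0.17, and 32 were not called. The lower count was 18 with the actin 3' to 5' difference as a covariate (median -0.27), 15 with the run as a covariate and 9 with a replicate block. Of 17 genes of glucose uptake and glycolysis, 6 rose and 3 fell, the latter 1 without immature B array 1 or pre-B array 5. Slc16a1, a lactate transporter, fell by 1.68 (SE 0.20, adjusted p = 1.4e-06), from 11.90 to 12.28 in pre-B arrays to 9.46 to 11.04 in immature B arrays, while Ldha, which makes lactate, differed by 0.070 (adjusted p = 0.85) and the aldolase gene Aldoa rose by 1.16 (adjusted p = 0.00243). In the endoplasmic reticulum, Xbp1, the regulator of secretory capacity, rose by 1.40 (SE 0.30, adjusted p = 0.00128) and Edem1, a factor of protein disposal, by 1.29 (SE 0.14, adjusted p = 1.87e-07). Herpud1, of the same disposal route, fell by 0.87 (SE 0.13, adjusted p = 1.38e-05). Of 24 measured genes of folding and secretion 7 rose and 1 fell. The higher count was 12 without immature B array 4 and 1 without arrays 2, 3 and 6, where Xbp1 was not called (adjusted p = 0.0758).

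**Figure D4:**
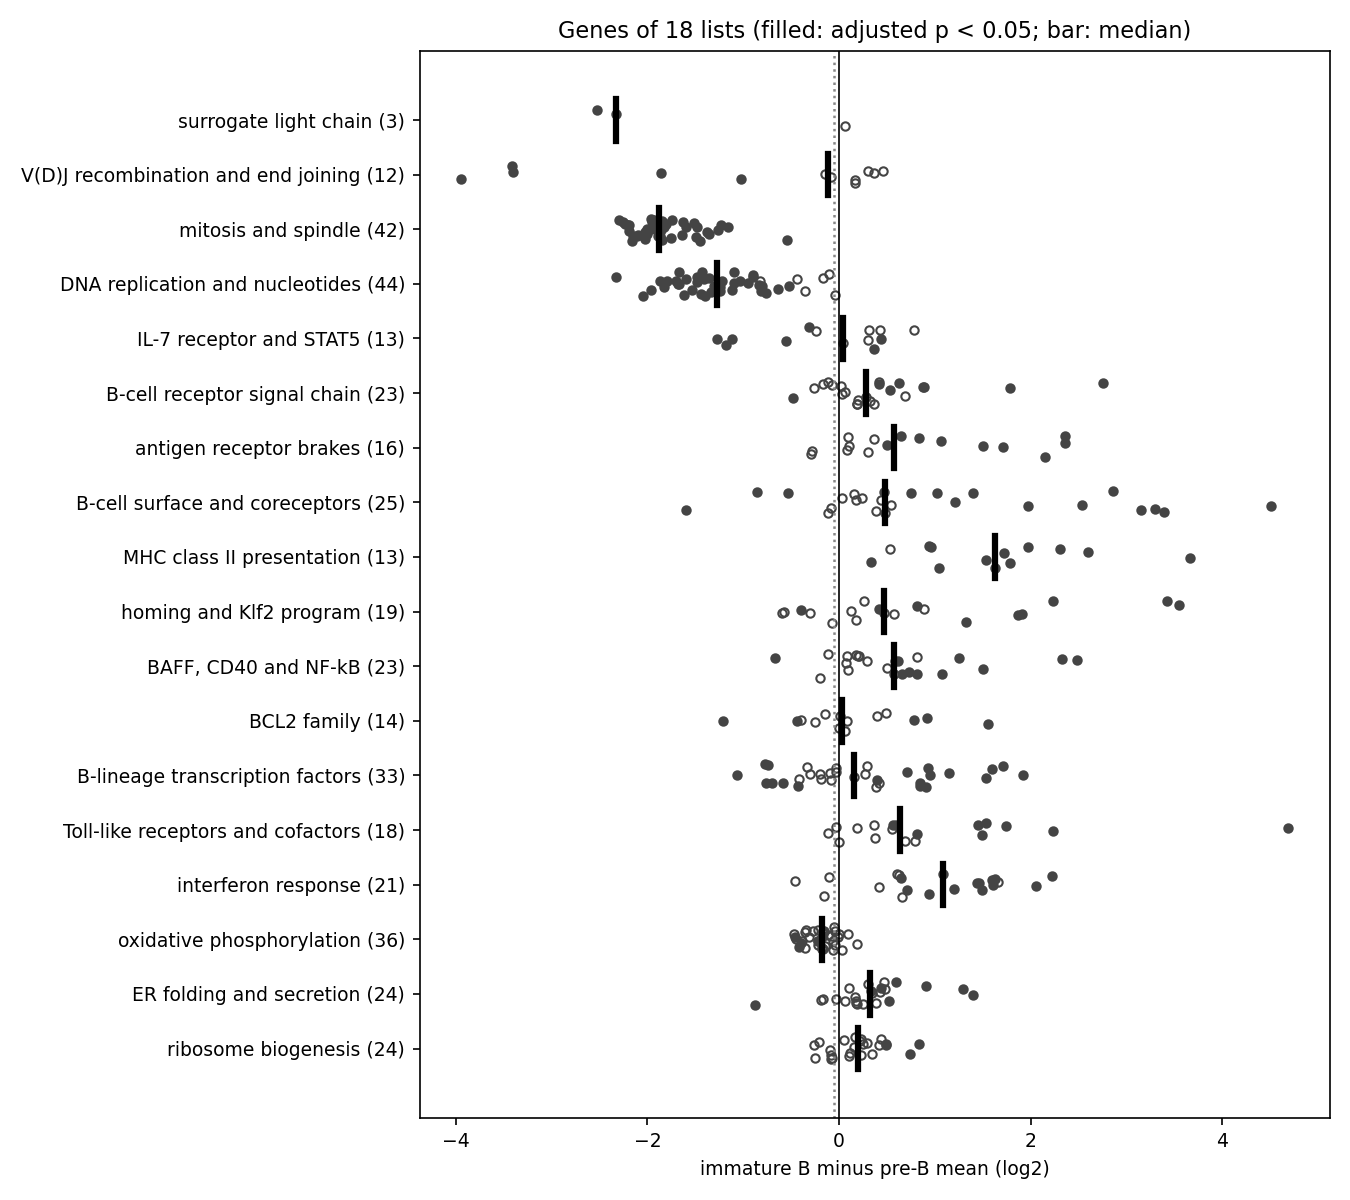
Difference (immature B minus pre-B mean, log2) of every measured gene of 18 lists, with 1 point per gene and a black bar at the median of the list, and the dotted line at the median of all 12393 genes. The mitosis list, at a median of -1.88, and the MHC class II list, at 1.63, lie farthest to either side among the lists of 5 or more genes.

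Of 20 measured targets of p53, 4 rose and 3 fell, beside 10.9% and 8.70% of all genes, which also moved both ways. The death receptor gene Fas rose by 1.33 (SE 0.26, adjusted p = 0.000457), from 5.62 to 6.27 in pre-B arrays to 6.26 to 7.70 in immature B arrays, and the RNA-binding protein gene Zmat3 by 1.29 (adjusted p = 0.00104). Gadd45g, a stress sensor, fell by 0.89 (adjusted p = 9.08e-06), as did the cycle inhibitor Cdkn1a described above. Of 15 genes of early progenitors 2 rose and 3 fell, beside 10.9% and 8.70% of all genes. Lmo2, a bridging factor of transcription complexes, rose by 2.05 (SE 0.20, adjusted p = 7.41e-08), from 8.85 to 9.67 up to 10.83 to 11.72. Csf1r, the other progenitor gene that rose, is given with the monocyte genes below.

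Some of the largest differences fell outside these groups. Fgd2, an exchange factor for the GTPase CDC42, rose by 3.66 (SE 0.24, 12.6-fold, adjusted p = 1.77e-10), from 6.10 to 7.02 in pre-B arrays to 9.85 to 11.02 in immature B arrays. Wnt10a, a secreted WNT ligand, was near background in pre-B arrays and rose by 3.43 (SE 0.36, adjusted p = 1.51e-07), with immature B levels from 5.97 on array 4 to 8.42 on array 1. Its mean was 5.68 in mature B arrays, below the immature B mean of 7.26. Lima1, an actin-binding protein, fell by 2.91 (SE 0.22, adjusted p = 1.39e-09), from 9.55 to 10.52 down to 6.46 to 7.58, and Cav2, a caveolin, fell by 2.85 (SE 0.23, adjusted p = 5.6e-09). Lima1 was at 7.23 in pro-B and 7.18 in mature B arrays, so that pre-B cells had the highest mean of the 4 stages. P2rx3, an ATP-gated channel, Tnnt2, a troponin of muscle, and the less known genes Lrr1 and Tmem98 fell by 2.62, 3.14, 2.70 and 2.66, all to immature B means near background.

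Transcripts of other cells were present in both populations. The cytotoxic gene Gzma was 5.02, 6.60 and 7.39 at the lowest, median and highest pre-B array and 2.88, 3.18 and 3.52 in immature B arrays, where it was near background, a difference of -3.27 (SE 0.38, adjusted p = 5.63e-07). Of 17 measured T and NK cell markers, 7 fell and 0 rose. Klrd1, an NK receptor chain, fell by 2.29 (adjusted p = 0.000352), a call lost within run 2. The mean of the T and NK list on an array was 5.51 to 6.01 in pre-B and 4.67 to 5.19 in immature B arrays, and these genes were at higher means in pro-B arrays, 10.53 for Gzma and 11.15 for Klrd1. Of the 17 markers, 11 had means below the background limit in both stages.

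Some monocyte transcripts were higher in immature B arrays, and Csf1r and Clec10a were far higher on 3 of these arrays than on the others. Csf1r, the receptor for macrophage colony stimulating factor, was 6.53, 11.48, 11.41, 5.34, 6.59 and 11.17 on immature B arrays 1 to 6, against 4.09 to 6.72 in pre-B arrays. Its difference of 3.40 (SE 0.96, adjusted p = 0.0125) was 0.80 without arrays 2, 3 and 6 (adjusted p = 0.719). The lectin gene Clec10a, chosen after its values were seen like Igha below, was 9.62, 9.73 and 9.20 on arrays 2, 3 and 6 and 3.51, 4.57 and 4.31 on arrays 1, 4 and 5. The lysozyme gene Lyz2 was 8.03 to 11.18 in pre-B arrays and 9.77 to 12.90 in immature B arrays, so that it was above background on every array of both stages. Its difference was 1.77 (adjusted p = 0.0123) and 0.65 without arrays 2, 3 and 6 (adjusted p = 0.572). Of 20 measured myeloid markers 9 rose and 0 fell, and 0 were called in either direction without arrays 2, 3 and 6, where 3 immature B arrays remain. The median difference of the list was 1.02 with those arrays and 0.77 without them. Leaving out 1 array moved the higher count to 5 (immature B 3, pre-B 2 or pre-B 3) or 16 (immature B 4 or pre-B 4). Csf1r lost its call within either run and Lyz2 within run 1, and both lost it with a replicate block and with all 39 arrays in the model. The mean of the myeloid list was 6.90 to 9.18 on pre-B and 8.16 to 10.08 on immature B arrays.

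Plasma cell transcripts also varied between arrays. Igha, the IgA heavy chain, was 11.77, 4.99 and 11.04 on immature B arrays 1, 4 and 5, 14.01 and 14.02 on arrays 2 and 6 with array 3 within 0.1 of them, and 4.24 to 10.999 in pre-B arrays, and its difference of 2.25 was not called (SE 1.31, adjusted p = 0.261). Jchain, which joins IgA and IgM units, ran from 5.93 on array 4 to 13.36 on array 6, with a difference of 2.60 (SE 1.02, adjusted p = 0.0763). Both were called without immature B array 4 (adjusted p = 0.0224 and 0.00202), and Jchain also within run 2. Of 9 measured plasma cell markers 3 rose and 2 fell, with 6 and 2 without immature B array 4 and 1 and 1 without arrays 2, 3 and 6. Sdc1, which encodes CD138, was among those that fell, by 1.08 (adjusted p = 0.000118), a call lost with all 39 arrays in the model. Of 12 erythroid markers 4 rose and 0 fell, and the higher count was 2 without immature B array 2, 3 or 6 or pre-B array 8. Without arrays 2, 3 and 6 together the counts were 0 and 1. Of 10 plasmacytoid dendritic cell markers 1 rose and 2 fell, beside 10.9% and 8.70% of all genes. The lower count was 1 when any 1 of immature B arrays 1, 4 and 5 or pre-B arrays 1, 3, 6, 7 and 8 was left out, and the counts were 0 and 0 within run 2. The part of such cells in the differences of the B-cell genes was not tested. Of the 116 called genes named here, 85 differed by more and 31 by less without immature B arrays 2, 3 and 6. Rag2 and Ms4a1, for example, differed by -4.47 and 3.52 there, and Cd86 and H2-Eb1 by 2.75 and 0.97, against 3.15 and 1.78 with those arrays. Since the named genes were picked in part for large differences, these counts do not stand for all called genes.

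**Figure D5:**
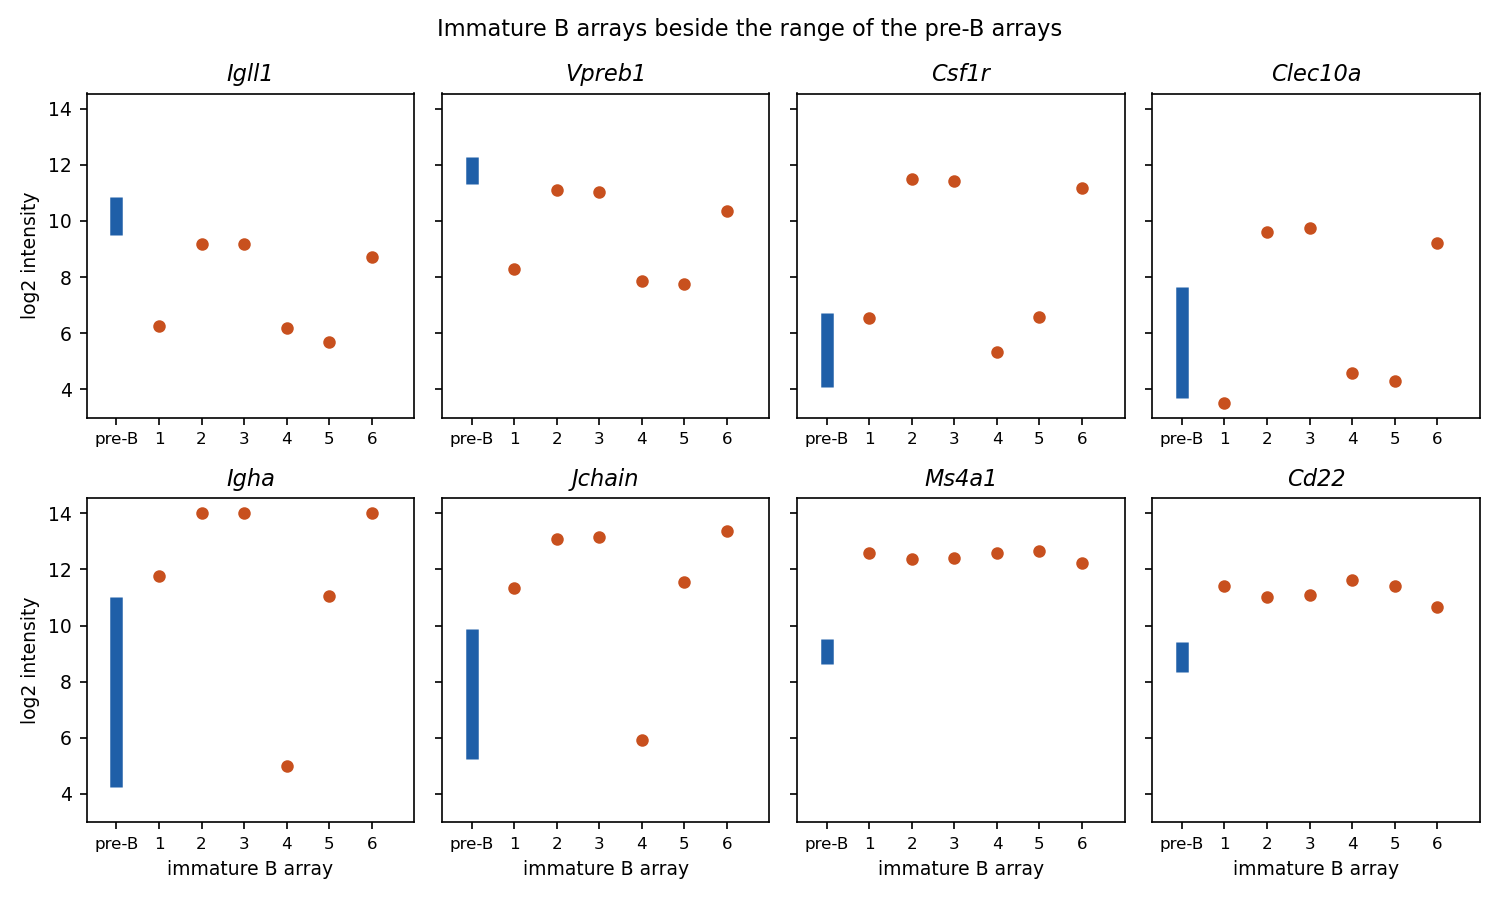
Levels (log2 intensity) of 8 genes on each of the 6 immature B arrays, with 1 panel per gene and 1 point per array, and the lowest to highest pre-B level as a bar at the left of each panel. Igll1, Vpreb1, Csf1r and Clec10a are high on arrays 2, 3 and 6, whereas Ms4a1 and Cd22 stay within 1 unit of their mean.

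The steps on either side put these values in place, though each shares arrays with the comparison above. From pro-B to pre-B cells Rag1 and Rag2 differed by 1.71 and 1.13 (pre-B minus pro-B, log2, adjusted p = 8.36e-05 and 0.00185), and from immature to mature B cells by -0.96 and -0.50 (mature B minus immature B, adjusted p = 0.173 and 0.53). Igll1 differed by -1.21 at the first of these steps and -1.01 at the last (adjusted p = 0.0476 and 0.453). For Cenpf the values were 0.66 and -1.10 (adjusted p = 0.103 and 0.141), so that its mean was highest in pre-B cells. Ms4a1 differed by 1.41 and -0.18 (adjusted p = 7.43e-08 and 0.723), and its mature B mean of 12.30 was within the immature B range. Cxcr5 differed by -0.52 and 2.31 and Fcer2a by 0.47 and 3.18 (adjusted p = 0.171, 0.000544, 0.25 and 3.88e-05). H2-DMb2 differed by -0.69 and 1.69 (adjusted p = 0.0466 and 0.00337). Some other rises followed a drop from pro-B to pre-B cells. The pro-B means of Lat2, Ctsh, Irf8 and Bcl11a were 9.47, 11.50, 12.38 and 10.70, against immature B means of 9.45, 10.73, 11.29 and 10.41. At that first step 7 of the 16 receptor brakes were called lower and 4 higher, and 6 of the 13 class II genes lower and 1 higher. Markers of other cells were lower there as well. Of plasmacytoid dendritic cell markers 9 of 10 were called lower and 1 higher. The lower counts were 15 of 17 for T and NK and 16 of 20 for myeloid markers, with 0 higher in both. The part of such cells in the drops from pro-B to pre-B cells was not tested.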

How the data were processed

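Arrays of the Affymetrix mouse platform were made by the authors from sorted cells: RNA was taken with Trizol, 20 ng was amplified with NuGEN's Ovation kit and hybridised as biotinylated cDNA, per the labels' protocols. The deposited values are linear intensities made with RMA, per the submitters' processing notes, and whether all 39 arrays were normalized together was not given in the sources used here. The cause of each array's 3' to 5' differences, and their bearing on long transcripts, was not tested. The intensities were taken to log2. Of 22690 probe sets, 20380 named 1 gene in the platform annotation, and the brightest stood for each of 12393 genes. Probe sets of 691 with several genes, 1555 with none and 64 controls were left out.

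Differences were tested with limma 3.58.1 in R 4.3.3 (lmFit, then eBayes with an intensity trend) on the 23 normal arrays, with a mean per stage and Benjamini-Hochberg adjustment over all genes. The number of arrays limits the precision. The steps were tested on simulated data. Genes named were taken from up to 10 per direction with the largest difference and separated arrays. Further sources were up to 6 called and 2 uncalled genes of each of 32 lists and 44 preset genes, of which 41 were measured. Those said to be chosen after their values were seen came beside these. Not every gene so picked is named. The background limit is the 90th percentile of the mean levels of 45 genes of other organs. The members and lists were chosen with earlier results of these data known. Whether arrays of the same number share an animal was not given, and the main fit did not treat them as pairs. Besides leaving out each array, 12 planned and 2 added alternatives were run. Promoters are from RefSeq.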

Additional observations from a re-analysis of the deposited data

Results flagged for a closer look

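For each gene named above, the 8 pre-B and the 6 immature B arrays were searched for 1 array far from the rest of its stage by Dixon's criterion, which chance alone meets in about 1 in 20 sets of values. Of 282 sets, 19 held such an array, and immature B array 4 was that array in 11 of them. It was low for genes of the cell cycle. Cenpf was 5.83 on array 4 and 7.16 to 7.89 on the others, E2f8 8.089 against 9.19 to 9.63, Ccne2 5.615 against 7.11 to 7.46, Cdkn2c 8.375 against 9.35 to 9.85 and Mcm10 5.373 against 6.91 to 7.13. It was low too for genes that rise at this stage or mark other cells. Cd86, the costimulatory ligand, was 5.375 against 6.88 to 7.49, the cannabinoid receptor gene Cnr2 8.356 against 9.20 to 9.68 and the protease gene Ctsh 9.33 against 10.76 to 11.18. Xrcc5, which encodes Ku80, was 7.63 against 8.13 to 8.32. Igha was 4.988 against 11.04 to 14.02 and Jchain 5.933 against 11.32 to 13.36.

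Pre-B array 2 stood apart for 4 genes. The plasma cell genes Igha and Jchain were 4.237 and 5.226 there, against 9.12 to 11.00 and 8.57 to 9.89 on the other 7 pre-B arrays, and the lectin gene Clec10a was 3.706 against 5.86 to 7.64. The interferon response gene Rtp4 was high there, at 6.707 against 3.52 to 4.94. Of the other 4 values, Bad was 7.008 on pre-B array 7 (8.005 to 8.54 on the others), Xrcc5 6.737 on pre-B array 1 (7.71 to 8.53), Fyn 9.537 on immature B array 1 (9.91 to 10.10) and Ifi30 12.99 on immature B array 6 (13.31 to 13.48). The cause of these values was not tested.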

How the results depend on the processing

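Of the 116 called genes named above, 113 kept their sign in each of 28 alternatives and 82 also their call. When any 1 array was left out 113 kept the call, the exceptions being Fyn, Lgals1 and Myc. The genes named are only a part of those that the naming rule picked, so these counts do not stand for all of them. Cd79b and Dapp1, for example, were picked but not named above, and each lost its call without any 1 of 9 arrays. Without probe sets that match several transcripts the sign turned for Ighm (-0.105), Igkv9-120 (-0.034) and Igll1 (0.649), since other probe sets then stand for them. Against 2426 called genes, 1348 of them higher and 1078 lower, the fit of all 39 arrays called 1414, 703 and 711, run 1 alone 1314, 679 and 635, and the fit without immature B arrays 2, 3 and 6, added after the data were seen, 1491, with 749 higher. Run 1 alone and the last fit hold fewer arrays. With the accession run as a covariate 3501 were called. With a replicate block 2301 were called. The block is not taken as a paired analysis, since the animal behind each array was not given. Deviations of same-numbered arrays from their stage mean correlated from -0.723 to 0.363. That cannot settle pairing, since centring shifts such values and the arrays numbered 4 lie in different runs. Leaving out 1 array gave 2082 (immature B 3) to 2842 (immature B 4). List medians moved beyond the spread between arrays in these cases: the surrogate light chain was -0.937 with all probe sets averaged, 0.065 without probe sets that match several transcripts and -3.761 without immature B arrays 2, 3 and 6. Recombination was -0.556 without the dimmest 40% of genes. Immunoglobulin chains were 1.712 and 2.234, and gate genes 0.288 and -0.533, with all probe sets averaged and without those that match several transcripts. The interleukin 7 list was -0.399 in the latter. Some counts of called genes in a list moved by over 1.5 times and by 3 genes or more. With all 39 arrays in the model this held for 12 counts, such as interferon genes called higher (13 to 4), antigen receptor brakes (9 to 5), class II genes (12 to 7) and Toll-like receptors and cofactors (9 to 5). Within run 1 BAFF, CD40 and NF-kB genes called higher went from 10 to 5. Glycolysis genes called higher went from 6 to 2 within run 1, with all 39 arrays and without immature B arrays 2, 3 and 6. With the run as a covariate folding and secretion genes called higher went from 7 to 14, and genes of oxidative phosphorylation called lower from 4 to 15. The cause was not tested where the alternative's own construction does not show it. Levels near background have no certain order.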
